A study of Mus musculus with 4 samples.

Results

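Coagulation factors and fibrinogen were followed here as 10 genes whose proteins hepatocytes secrete into the blood: F2, F9, Fga, Fgb, Fgg, Serpinc1, Plg, Kng1, Vtn and Apoh. They were found on the array by matching the RefSeq accession of each probe to these symbols. All 10 genes were found, on 14 probes, and all 10 were among the 31073 genes or accessions tested, of 32665 on the array. The tissue was liver from 3-month-old C57Bl/6 male mice. Every mouse carried a mutant form of Wrn, the helicase gene behind Werner syndrome in humans, so the mutation was common to both groups. Treated Wrn mutant mice drank water with vitamin C at 0.4% from weaning on, and the control Wrn mutant mice received no treatment. RNA of 1 treated liver, labelled with Cy3, and of 1 untreated liver, labelled with Cy5, was hybridised to each of 4 Agilent arrays with 2 colours, so 4 treated livers were set against 4 untreated livers. The labels call the 4 pairs biological replicates. Mice make vitamin C themselves, so the comparison is between animals with and without a supplement, not between animals with and without the vitamin.

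Clotting is a cascade of serine proteases that circulate as inactive zymogens. The cascade ends with thrombin, which is cut from prothrombin and turns soluble fibrinogen into a fibrin mesh. Inhibitors such as antithrombin hold the cascade in check, and plasmin, cut from plasminogen, dissolves fibrin. Nearly all of these proteins come from hepatocytes, and the 3 fibrinogen chain genes are known to be induced together in the acute phase response, when interleukin-6 reaches the liver.

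Each value is the log2 of the Cy3 over the Cy5 signal of an array, that is of the treated over the untreated liver, and means are given ± SD over 4 arrays. A gene with several probes was represented by its brightest one, where brightness is the mean log2 intensity of both channels. The sign was taken from the dyes named in the labels; the authors' deposited table has the opposite sign, which by those dyes is untreated over treated. Should the dyes in the labels be reversed, every direction given here would be reversed too. No array was dye-swapped (0 of 4), so an effect of the dye on a probe and an effect of the treatment cannot be told apart. In RNA from whole liver, fewer cells of a type and less RNA per cell cannot be told apart either. Median spot signals were 379.5 to 530 in Cy3 and 813 to 962 in Cy5, where negative controls had medians of 62 to 67 and of 66 to 80. Across the 31073 genes, the ratios of replicates 1, 3 and 4 correlated with each other at r = 0.60 to 0.78, whereas replicate 2 correlated with them at r = -0.18 to 0.020. Replicate 2 therefore stood apart, and results that rest on it are given with and without it. These are correlations across genes, which share an array and are not independent replicates.

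In treated livers most of the clotting genes had ratios below 0, but none passed the test. The median over the 10 genes was -0.40, against -0.015 over all genes tested. The mean was below 0 for 9 of the 10, from -0.90 for Fgb (fibrinogen beta chain) to -0.24 for F9 (coagulation factor IX). It was below 0 for 16756 of the 31073 genes tested. Fga, the fibrinogen alpha chain, stood at 0.041. With limma, 0 of the 10 had an adjusted p under 0.05, as did 0% of the 31073 genes. The adjusted p was 0.144 for 8 of the 10 genes, 0.164 for Fgg and 0.853 for Fga. The unadjusted p was under 0.05 with a mean below 0 for 9 of the 10, against 16.5% of all genes. Ratios were below 0 on all 4 arrays for 8 of the 10 genes, the exceptions being Fga and Fgg, against 16.1% of all genes.

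Most of these genes lay among the brightest on the array, and that group as a whole had ratios below 0. Of the 10 clotting genes, 8 had a brightness of 17 or more, a range that held 153 genes in all. The ratio was below 0 on every array for 65.4% of those 153 genes, and their median was -0.30. Of the 153, 145 had a mean below 0, and for 109 the unadjusted p was also under 0.05 (limma). Without the clotting genes among them the median was -0.29 over 145 genes. Among the 8 bright clotting genes, 7 were below 0 on every array, and the median was -0.44. The 2 dimmer clotting genes, Fga and F9, had a median of -0.098. Ratios with the trend over brightness taken off are given further on.

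**Figure D1:**
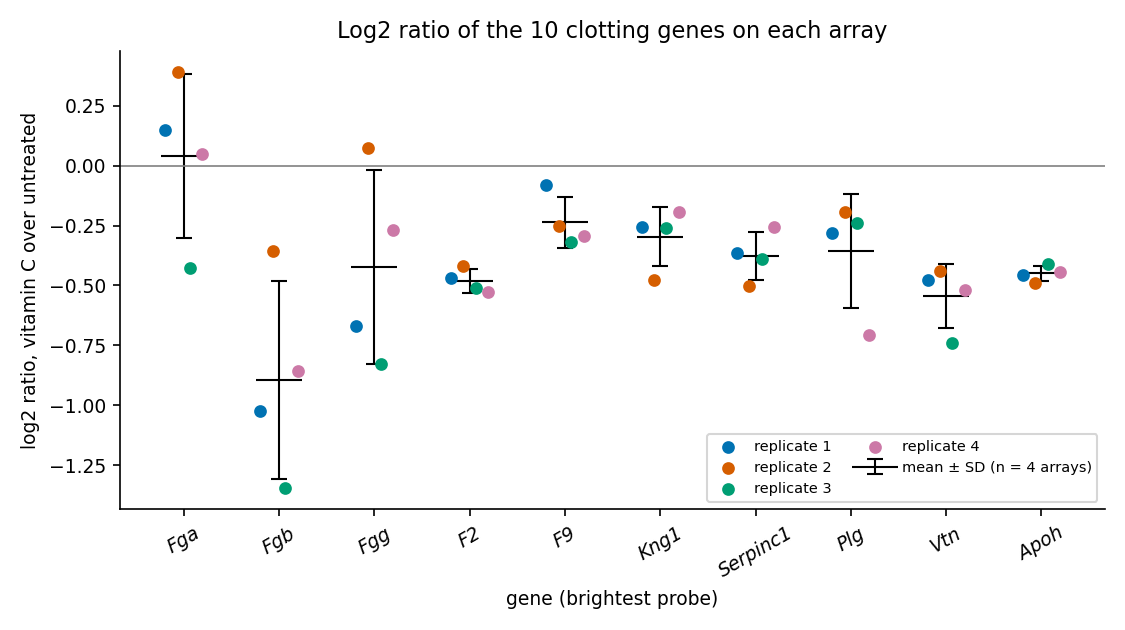
Log2 ratio of vitamin C over untreated (y axis) for the brightest probe of each of the 10 clotting genes (x axis), with 1 point per array and bars for the mean ± SD of 4 arrays. Fgb has the lowest mean, at -0.90, the 3 fibrinogen genes spread most widely, and the points of F2 and Apoh lie close together.

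The fibrinogen genes gave the widest spread of the set. Fibrinogen is built from 3 pairs of chains, alpha, beta and gamma, which the genes Fga, Fgb and Fgg encode side by side. Sequence just upstream of the 3 start sites is shown because the ratios of the 3 chains were highest on the same array and lowest on the same array, as described further on. It is from RefSeq on GRCm38.p6 and covers 250 bases 5′ of the annotated start, read 5′ to 3′ on the strand of the gene. The windows are chr3:83025903-83026152 on the plus strand for Fga, chr3:83049864-83050113 on the minus strand for Fgb and chr3:83007474-83007723 on the plus strand for Fgg. Capitals mark CTGGGA, the core of the element through which interleukin-6 acts on acute phase genes.
Fga: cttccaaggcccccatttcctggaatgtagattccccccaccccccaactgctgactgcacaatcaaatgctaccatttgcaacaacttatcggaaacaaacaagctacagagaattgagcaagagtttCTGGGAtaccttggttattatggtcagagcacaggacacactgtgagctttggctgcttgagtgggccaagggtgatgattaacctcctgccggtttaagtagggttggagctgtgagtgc
Fgb: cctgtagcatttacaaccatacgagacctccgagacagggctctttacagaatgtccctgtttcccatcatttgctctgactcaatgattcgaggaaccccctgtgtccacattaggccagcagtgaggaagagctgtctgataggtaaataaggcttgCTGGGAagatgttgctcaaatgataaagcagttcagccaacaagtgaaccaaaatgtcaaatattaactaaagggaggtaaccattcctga
Fgg: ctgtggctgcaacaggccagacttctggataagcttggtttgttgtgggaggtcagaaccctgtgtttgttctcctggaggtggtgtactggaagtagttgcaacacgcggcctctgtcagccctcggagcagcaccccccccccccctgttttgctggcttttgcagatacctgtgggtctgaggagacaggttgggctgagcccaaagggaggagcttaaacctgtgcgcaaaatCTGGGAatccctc

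Both strands were searched for CTGGGA (reverse complement TCCCAG), the only motif searched for. CTGGGA lay 121 to 116 bases upstream of the start of Fga, 91 to 86 bases upstream of Fgb and 13 to 8 bases upstream of Fgg. Of the 10 clotting genes, 8 had an entry in the promoter table, the exceptions being Plg and Kng1. CTGGGA or its reverse complement was found in 4 of these 8 windows, the other being that of F9, and in 27.0% of all 32851 windows. A match describes the letters in the window and is neither a binding site nor a cause of the ratios.

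Fgb, which encodes the beta chain, had the lowest mean of the 10 genes. Its ratios were -1.02, -0.35, -1.35 and -0.86 on replicates 1 to 4, with a mean of -0.90 ± 0.41 (SD, n = 4), a level of 0.537 of that in untreated livers (95% interval of limma 0.411 to 0.702). Behind them, the Cy3 signal of the treated livers was 138046, 140534, 79335 and 148064, and the Cy5 signal of the untreated livers was 481786, 467558, 551088 and 513436 before normalization. Both the ratio and the raw Cy3 signal were lowest on replicate 3, and the Cy5 signal was highest there. Before normalization this array as a whole also had the lowest Cy3 median, 379.5, and the highest Cy5 median, 962. The raw signals of Fgb on it are therefore no separate evidence for its ratio. The ratio was below 0 in every pair, and it lay at percentile 5.23 among the 153 brightest genes. Those genes span a range of brightness, and Fgb was near its top, at 17.9. Genes with a symbol at a brightness of 17.9 ran from -1.11 for Gstp1 to -0.28 for Fbp1, with Ambp at -0.90 and Rbp4 at -0.48. The adjusted p was 0.144 (limma).

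Fgg encodes the gamma chain, which carries the main site through which fibrinogen holds platelets. It had -0.67, 0.074, -0.83 and -0.27 on replicates 1 to 4, with a mean of -0.42 ± 0.41 (SD, n = 4). Replicate 2 alone was above 0, and the interval of the mean ran from -0.80 to -0.044. Fga encodes the alpha chain, whose end thrombin removes to start the polymer. Its ratios of 0.15, 0.39, -0.43 and 0.048 lay on either side of 0, with a mean of 0.041 ± 0.34 and an interval from -0.28 to 0.37. Replicate 3 alone was below 0. Without replicate 2 the mean of Fga was -0.076, so its sign rests on that array, while those of Fgb and Fgg were -1.08 and -0.59.

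The mean differences between the chains were larger than their SD between arrays, although 4 arrays cannot carry the test past 0.05. Fgb minus Fga was -0.94 ± 0.18 (SD, n = 4), Fgg minus Fga was -0.46 ± 0.24 and Fgb minus Fgg was -0.47 ± 0.10. Before any trend over brightness was taken off, each of the 3 differences was below 0 on 4 of 4 arrays. The exact two-sided sign-flip test gave p = 0.125 for each, which is the smallest value that 4 arrays allow, and 0.125 after adjustment over 3 pairs. Fga was also the dimmest of the chains, at a brightness of 16.3 against 17.9 for Fgb and for Fgg. With a running median of the ratio over brightness taken off each array, Fgg minus Fga was -0.13 ± 0.21, smaller than its SD and below 0 on 2 of 4 arrays. In that setting Fgb minus Fga was -0.60 ± 0.15, below 0 on 4 of 4 arrays. The running median was flat at the brightness of Fgb, as described further on, so any further trend there was left in this difference. Fgb minus Fgg stayed at -0.47 ± 0.10, which was fixed in advance. Fgb and Fgg were equally bright and had the same value taken off, so this setting cannot test their difference.

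All 3 chains were highest on replicate 2 and lowest on replicate 3. Relative to their own means, Fga stood at 0.35, Fgb at 0.54 and Fgg at 0.50 on replicate 2, and at -0.47, -0.45 and -0.40 on replicate 3. On replicate 1 the chains parted, with Fga at 0.11, Fgb at -0.13 and Fgg at -0.25. Among 445 genes with a brightness of 16 or more, whose median SD was 0.163, the SDs of the chains lay at percentiles 84.7, 89.9 and 88.5. The same order of arrays, highest on replicate 2 and lowest on replicate 3, held for 14.8% of these 445 genes. Among the clotting genes it held also for Vtn.

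**Figure D2:**
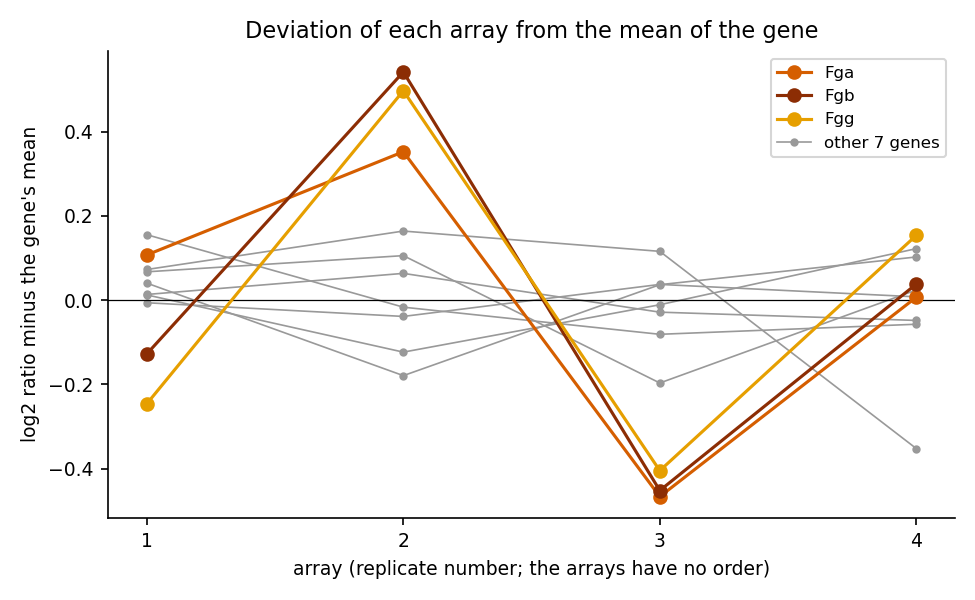
Log2 ratio on each array minus the mean of the gene (y axis) by array (x axis) for the 3 fibrinogen genes in colour and the other 7 clotting genes in grey. All 3 chains peak on replicate 2, at 0.35 to 0.54, and are lowest on replicate 3, at -0.47 to -0.40.

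The fibrinogen genes sit next to each other on chromosome 3, in the order Fgg, Fga, Fgb in the RefSeq gene table. Their flanking protein-coding genes on this array were Lrat and Plrg1. Lrat, an enzyme that esterifies retinol in stellate cells, had a mean ratio of -0.33 ± 0.61, with -1.16, 0.034, 0.21 and -0.38 on replicates 1 to 4. Plrg1, a splicing factor, had 0.058 ± 0.096. Neither had the chains' order of arrays.

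The genes of the thrombin and contact pathways had a narrower spread. F2 encodes prothrombin, the zymogen of thrombin. Its ratios were -0.47, -0.42, -0.51 and -0.53 on replicates 1 to 4, with a mean of -0.48 ± 0.049 (SD, n = 4), a level of 0.717 of that in untreated livers (95% interval 0.662 to 0.775). The 4 arrays lay within 0.11 of each other, and the SD was at percentile 4.94 of the 445 bright genes. The ratio itself was at percentile 24.8 among the 153 brightest genes, and the adjusted p was 0.144 (limma).

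F9 encodes factor IX, the protease whose loss causes haemophilia B, and it was the dimmest clotting gene, with a brightness of 13.2. Its ratios were -0.081, -0.25, -0.32 and -0.29, with a mean of -0.24 ± 0.11 (SD, n = 4) and a level of 0.849. Replicate 1 was nearest to 0 and the other 3 arrays lay close together. Genes of a brightness from 13 to 15 had a median of 0.030, and 12.6% of those 2027 genes were below 0 on all 4 arrays, as F9 was by this probe. A second, dimmer probe of F9 had a mean of -0.026, with arrays on either side of 0.

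Kng1 encodes kininogen, the cofactor of contact activation from which bradykinin is released. It had -0.26, -0.48, -0.26 and -0.19, with a mean of -0.30 ± 0.12 (SD, n = 4) and a level of 0.814. Replicate 2 was the lowest, in contrast with the fibrinogen genes. The mean was at percentile 51.0 of the 153 brightest genes, in the middle of that group. Its close copy Kng2 was measured by its own probe at 0.14 ± 0.13. Whether the probes tell the copies apart was not tested.

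By their brightest probes, antithrombin, plasminogen and the adhesive plasma proteins were below 0 on all 4 arrays in each case. So were 65.4% of the 153 brightest genes. Serpinc1 encodes antithrombin, which inhibits thrombin and factor Xa. Its ratios were -0.37, -0.50, -0.39 and -0.26, with a mean of -0.38 ± 0.10 (SD, n = 4) and a level of 0.770. The second, dimmer probe of Serpinc1 had 0.0041 ± 0.12 and was above 0 on replicate 1. Plg encodes plasminogen, the zymogen of plasmin. It had -0.28, -0.19, -0.24 and -0.71, with a mean of -0.36 ± 0.24 and a level of 0.782. Replicate 4 was well below the other 3 arrays for Plg, and the second probe of the gene showed the same array lowest, at -0.52.

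Vtn encodes vitronectin, an adhesive protein of plasma and the extracellular matrix that binds integrins. It had the second lowest mean of the 10 genes, with -0.48, -0.44, -0.74 and -0.52 on replicates 1 to 4, a mean of -0.54 ± 0.14 (SD, n = 4) and a level of 0.686 (95% interval 0.614 to 0.766). Replicate 3 was the lowest. Apoh encodes beta-2-glycoprotein I, a plasma protein that binds acidic phospholipids. Its ratios were -0.46, -0.49, -0.41 and -0.44, with a mean of -0.45 ± 0.032 and a level of 0.732. The SD of Apoh was the smallest of the set and lay at percentile 0.674 of the 445 bright genes. The adjusted p was 0.144 for Serpinc1, Plg, Vtn and Apoh (limma).

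Pairs of clotting genes were closest in profile outside the fibrinogen family. The root mean square distance over the 4 arrays was smallest between F2 and Apoh, at 0.074, and next between Kng1 and Serpinc1, at 0.091. It was largest between Fga and Fgb, at 0.949, which encode chains of the same protein. This distance includes the difference in mean, and Fgb minus Fga was -0.94 ± 0.18 (SD, n = 4). Both genes were highest on replicate 2 and lowest on replicate 3.

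Set in each liver rather than as ratios, every treated liver lay below every untreated liver for 8 of the 10 genes. The same held for 2.51% of 31062 genes and for 60.1% of the 153 brightest genes. The log2 level of Fgb was 17.39, 17.79, 17.16 and 17.52 in the treated livers of pairs 1 to 4, and 18.42, 18.15, 18.50 and 18.38 in the untreated livers. The highest treated liver lay below the lowest untreated liver. For F2 the treated livers lay between 17.47 and 17.55 and the untreated livers between 17.94 and 18.05. Apoh lay between 17.45 and 17.53 in treated and between 17.94 and 17.96 in untreated livers. The untreated livers were thus nearly the same after quantile normalization of average intensities, which itself draws the arrays together. Before normalization the Cy5 signals of Apoh were 352117, 378523, 375526 and 387040 on replicates 1 to 4. Fga ran from 15.98 to 16.52 in treated and from 15.97 to 16.47 in untreated livers, and the groups overlapped over almost their whole range. Fgg overlapped only through pair 2, where the treated liver was at 17.97 and the untreated liver at 17.90. The SD was larger among the treated than among the untreated livers for 9 of the 10 genes, the exception being F2. Every treated liver was read in Cy3 and every untreated liver in Cy5. A difference in spread between the groups therefore cannot be told apart from one between the dyes. The same tilt was present over all 31062 genes, with a median SD of 0.161 in treated and 0.121 in untreated livers, and over the 153 brightest genes, with 0.145 and 0.0766.

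**Figure D3:**
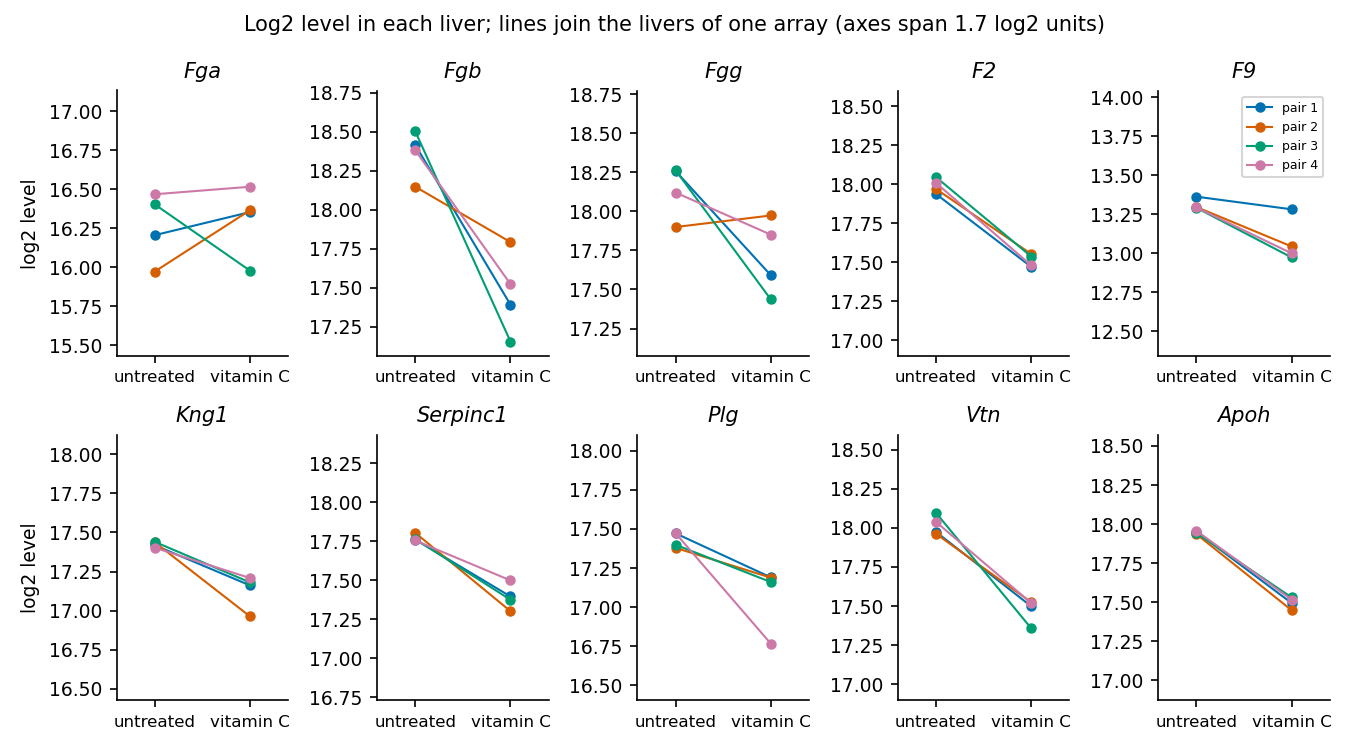
Log2 level in the untreated and the treated liver of each pair (x axis), with the level on the y axis of 1 panel per gene and lines that join the livers on the same array. Every panel spans the same number of log2 units, and the groups overlap for Fga and Fgg but not for the other 8 genes.

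Ratios across the array bent downwards at the bright end. Medians were 0.030 at a brightness of 13 to 15, 0.040 at 15 to 16, -0.050 at 16 to 17 and -0.30 at 17 or more, and the last was -0.32, -0.27, -0.31 and -0.28 on replicates 1 to 4. The scanner read spots above a signal of about 18553 to 19080 from a second scan at lower gain and scaled them up. The brightest probes of 9 of the 10 clotting genes were scaled in this way in both channels on all 4 arrays, and that of F9 on 0 arrays. The 835 genes scaled alike had a median of -0.025, and no spot was saturated (0 on each array). These 835 include all 153 genes at a brightness of 17 or more, whose median was -0.30. The other 682 scaled genes had a median of 0.0062. The median over the 835 therefore says little of the brightest spots, and an effect of the scaling on them was not tested.

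**Figure D4:**
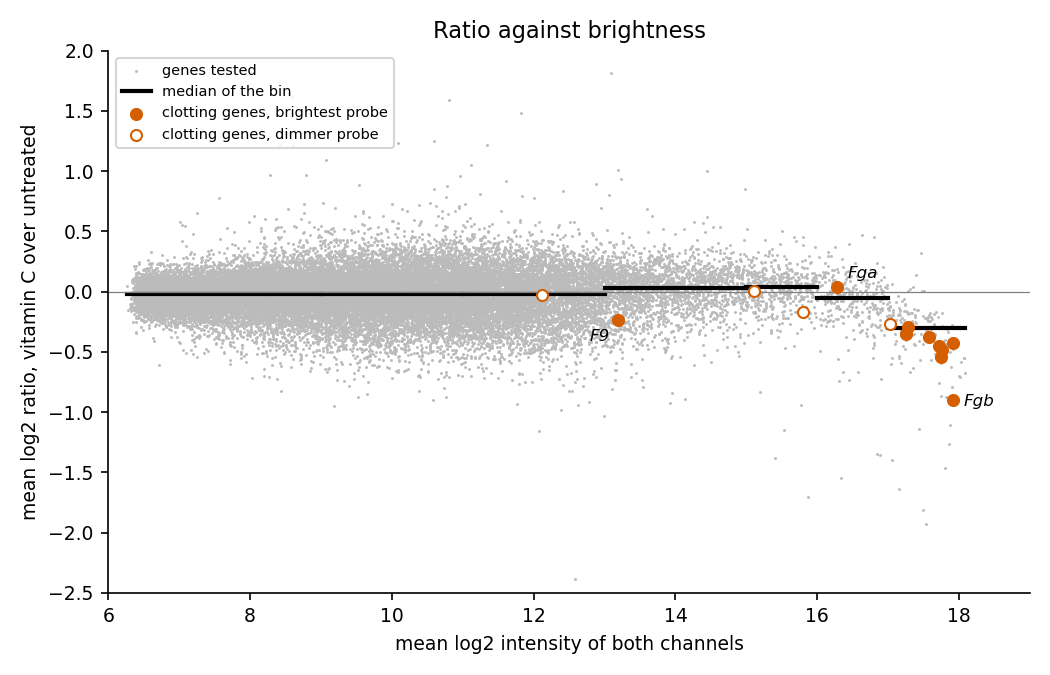
Mean log2 ratio of vitamin C over untreated (y axis) against mean log2 intensity of both channels (x axis) for all genes tested in grey, with black lines for the median of each range of intensity. Filled circles are the brightest probes of the 10 clotting genes, most of which lie near the median of -0.30 at an intensity of 17 or more, while Fgb lies below it.

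After a running median of the ratio over genes ranked by brightness was taken off each array, the values of the clotting genes were nearer to 0. Their median was then -0.10, and 5 of the 10 were below 0 on all 4 arrays, as 13.6% of all genes were. These 5 were Fgb at -0.54 ± 0.42 (SD, n = 4), F9 at -0.27 ± 0.11, Vtn at -0.19 ± 0.16, F2 at -0.12 ± 0.055 and Apoh at -0.094 ± 0.041. Serpinc1 came to -0.034, Kng1 to -0.044, Fgg to -0.067, Plg to -0.12 and Fga to 0.058, each with arrays on either side of 0. Fgb kept the lowest mean in this setting, and F9, read by the brighter of its probes, had the second lowest in place of Vtn. The running median was flat at the bright end. The same value, -0.36 as a mean over the arrays, was taken off Fgb, Fgg, F2, Vtn and Apoh, at a brightness of 17.7 to 17.9. Any further trend over brightness in that range was therefore left in their values, and its size was not tested. Before the running median was taken off, Ambp, as bright as Fgb, had a ratio of -0.90, and Fbp1 had -0.28.

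A second, dimmer probe was present for 4 of the genes and gave ratios nearer to 0. For Serpinc1, the brighter probe had -0.38 ± 0.10 (SD, n = 4) at a brightness of 17.6, and the dimmer probe had 0.0041 ± 0.12 at 15.1. The dimmer probe had 0.18, -0.0029, -0.064 and -0.098 on replicates 1 to 4, so the same transcript read as lower on all 4 arrays by one probe and as centred on 0 by the other. For F9, the dimmer probe at 12.1 had -0.026 ± 0.20, with 2 arrays on each side of 0. The dimmer probes of Kng1 and Plg had ratios below 0 on all 4 arrays, with means of -0.17 ± 0.058 and -0.27 ± 0.19.

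The brighter probe minus the dimmer one was -0.38 for Serpinc1, -0.21 for F9, -0.13 for Kng1 and -0.089 for Plg. Each of these 4 differences was below 0 on 4 of 4 arrays, by an exact two-sided sign-flip p of 0.125 each, the smallest that 4 arrays allow, and 0.125 adjusted over 4 pairs. The difference between the probes of Kng1 ran from -0.34 on replicate 2 to -0.00022 on replicate 4. The probes of a gene may lie on different parts of the transcript or on different isoforms, which was not tested. They also differed in brightness, and ratios over all genes were lower at the bright end. How often such differences were below 0 for other genes with several probes was not tested.

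**Figure D5:**
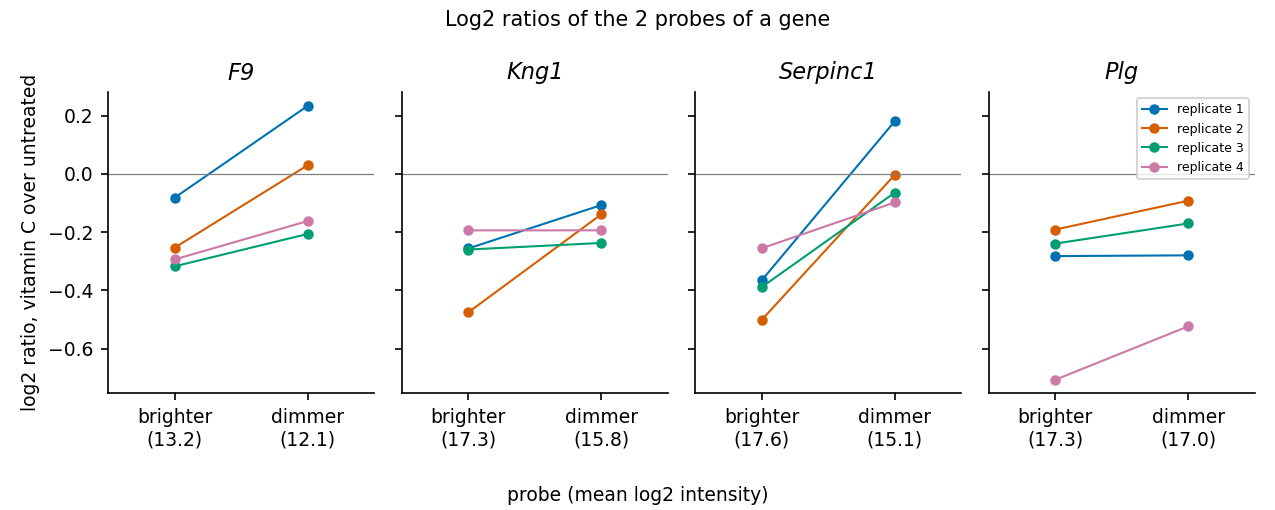
Log2 ratio (y axis) of the brighter and the dimmer probe (x axis, with their mean log2 intensity) of the 4 clotting genes with 2 probes, with lines that join the values of an array. On every array the dimmer probe lies above the brighter one, by the most for Serpinc1, at a mean difference of -0.38 for brighter minus dimmer.

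Genes of like profile were sought among 16849 genes with a symbol that were well above background in both channels on all 4 arrays. The mean profile of the 3 fibrinogen genes was -0.51, 0.037, -0.87 and -0.36. The nearest genes by root mean square distance were Chac1 (distance 0.095), Cfhr2 (0.098), Serpina1c (0.098), Sohlh2 (0.114) and Il1r1 (0.120). Cfhr2 and Serpina1c had a brightness of 16.8 and 17.1, and the other 3 lay between 11.7 and 12.1. The mean profile of the other 7 clotting genes was -0.34, -0.39, -0.41 and -0.42. Nearest to it were Atf2 (distance 0.041), Atp5b (0.056), Nolc1 (0.064), Dcaf12l2 (0.069) and Hoxd13 (0.071), of which Atp5b alone had a brightness above 17, at 17.5. Distances over 4 arrays are a description and single out no gene.

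The median over other genes of clotting was nearer to 0. Of the 37 measured genes of the clotting, anticoagulant, fibrinolysis and vitamin K lists, 24 had a mean below 0 and 13 above 0, with a median of -0.072. With limma, 0 of the 37 passed in either direction, and 9 were below 0 on all 4 arrays. Only 3 of the 37 had a brightness of 17 or more.

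Among 12 other clotting factors, 6 had means on each side of 0 and the median was 0.0075. F10, the zymogen of the protease that cuts prothrombin, had -0.22, -0.18, -0.31 and -0.069, with a mean of -0.19 ± 0.10 (SD, n = 4) and an adjusted p of 0.145 (limma). F7, which starts the cascade with tissue factor, had -0.11 ± 0.036. The list's median on single arrays ran from -0.068 on replicate 3 to 0.11 on replicate 1.

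Among 10 anticoagulant proteins, 8 had a mean below 0 and the median was -0.091. Proc, which encodes protein C, the protease that inactivates factors V and VIII, had -0.36, -0.27, -0.31 and -0.26, with a mean of -0.30 ± 0.046 at a brightness of 17.3. Serpind1, which encodes heparin cofactor II, had -0.13 ± 0.076. Of 9 genes of plasminogen activation and its inhibitors, 7 had a mean below 0, and the median was -0.14. Plau, the gene of urokinase, was below 0 on all 4 arrays, at -0.14 ± 0.032.

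The vitamin K cycle gives F2, F9 and several anticoagulants their calcium-binding residues, and 6 of its genes and of those for factor secretion were measured. The median was 0.0067, with 3 genes below and 3 above 0. Ggcx, the carboxylase of that cycle, was above 0 on all 4 arrays, at 0.19 ± 0.072, and Mcfd2, which with Lman1 carries factors V and VIII out of the endoplasmic reticulum, was below 0 on all 4, at -0.22 ± 0.10. All 4 thrombin receptor genes had means below 0. F2r had -0.57, -0.15, -0.58 and -0.59, with a mean of -0.47 ± 0.21, and F2rl3 had -0.20 ± 0.27. F2r had a brightness of 13.4, in a range where the median of all genes was above 0.

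Of 10 hepatocyte transcription factors, 9 were measured and 7 had a mean below 0, with a median of -0.11. Foxa3 had -0.21 ± 0.21. None of the 9 passed (smallest adjusted p = 0.188, limma).

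Markers of the tissue were read from the same arrays. Of 10 hepatocyte markers, 9 were measured, with a brightness of 15.4 to 18.0, as in RNA from liver, and their median ratio was -0.36. The 6 with a brightness of 17 or more had a median of -0.44, close to that of the bright clotting genes, and the 3 dimmer ones (Ttr, Tdo2 and Hpd) had a median of 0.054. Medians of the other cell types lay between -0.061 and 0.071. They were -0.059 for 9 platelet and megakaryocyte markers, 0.025 for 8 of liver endothelium, 0.066 for 5 of Kupffer cells, 0.071 for 5 of stellate cells, -0.061 for 5 of bile duct cells, 0.027 for 5 of lymphocytes and 0.033 for 3 of erythroid cells. No marker of any of these lists passed limma's test.

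Leaving out replicate 2 changed the calls. Then 8 of the 10 clotting genes passed limma's test, all but Fga and F9, but so did 8764 of the 31073 genes, or 28.2%. The adjusted p was then 0.00975 for Fgb, F2 and Apoh, and 0.656 for Fga. With each of the other arrays left out in turn, 0 of the 10 passed. The median over the 10 genes was -0.42 without replicate 2.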

How the data were processed

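Expression was measured in 4 treated and 4 untreated livers on 4 arrays. Spot intensity values were deposited as extracted with Feature Extraction 10.5.1.1 of Agilent, per the file headers. They comprise each channel's median signal and local background, Agilent's processed signals and, per the file headers, the log10 of the Cy5 over the Cy3 processed signal. The log2 table deposited by the authors correlated at r = 0.950 to 0.980 with log2 Cy5 over Cy3 as computed here over 41174 probes. It is centred near 0, its exact scale is unknown, and the submitters' processing notes name limma for it with no version.

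Median signals were background-corrected with normexp (offset 50) and normalized within arrays by loess, with weight 0 for control spots. Outlier spots were left out and repeat spots averaged. Accessions of 25097 probes (61.0%) matched a symbol in RefSeq's GRCm38.p6 gene table. Each gene was read by its brightest probe, which had to be well above background in either channel on 3 or more arrays. Ratios were tested against 0 with limma 3.58.1 in R 4.3.3, and p-values were adjusted over the 31073 genes by the Benjamini-Hochberg method, with a threshold of 0.05. The path was also run on simulated arrays with noise drawn independently for each gene and array, and no result given here rests on that run. The number of arrays limits the precision. All 4 arrays lay on 1 slide with 1 scan date, so no block for either could be made. Levels of single livers were put on a common scale by quantile normalization of average intensities.

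The members, the gene lists, the brightness of 17 and the rules were chosen with earlier results of these data known. Named genes were the 10 members, up to 2 genes of each pathway list with the smallest p and the 5 genes nearest each mean profile. Some genes that this rule takes are not reported here. The flanking genes, Kng2 and the dimmer hepatocyte markers were added after their values were seen. The pairing of livers lies in each array's ratio. Alternatives were other background, normalization, filter, probe and variance settings, separate-channel fits, a running median over brightness, the deposited table and leaving out each array.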

Additional observations from a re-analysis of the deposited data

How the results depend on the processing

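Over 16 alternative settings, 9 of the 10 clotting genes kept a mean below 0 in each, and the median over the 10 was below 0 in all 16. Some of the 16 could not change the mean of a clotting gene, so the signs there were fixed in advance. These were the settings without the filter on dim probes, with another variance model, with separate channels and without saturated spots. For the 8 genes below 0 on all 4 arrays, leaving out 1 array or scaling between arrays could not turn the sign either. The mean of all probes could not change a gene with a single probe. Fga was reversed in 2 of the 16, at -0.17 with arrays centred on the median without loess and at -0.076 without replicate 2. With 1 array left out Fga ran from -0.076 to 0.20. The number of genes with an adjusted p under 0.05 (limma), 0 as reported beside 8600 at an unadjusted p under 0.05, was 9628 without loess, 9 of them clotting genes, and 0 to 8764 with 1 array left out. With the channels fitted separately and a random block for each array (correlation 0.539) it was 981, with 6 of the clotting genes (Fgb, F2, Kng1, Serpinc1, Vtn and Apoh), and it was 0 with no replicate block, where 4415 had an unadjusted p under 0.05. The cause of these changes was not tested. The median over the clotting genes was -0.22 with Agilent's processed signals, -0.68 without loess, -0.37 with the mean of all probes of a gene, -0.10 after the running median and -0.44 to -0.38 with 1 array left out. In the authors' deposited table, turned to vitamin C over untreated, it was -0.39, with Fgb at -0.89 and Fga at 0.050. Signal over background did not limit these genes: each was well above background in both channels on 4 of 4 arrays.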
